A study of Mus musculus with 171 samples.

Results

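Proteasome and immunoproteasome genes were followed in single cells of early mouse embryos with and without Stat3. The genes were chosen by name alone: every protein-coding gene in the deposited count table whose symbol begins with Psma, Psmb, Psmc, Psmd, Psme or Psmf followed by a digit. The rule found 46 of the 49671 gene rows. They comprise 7 alpha and 7 constitutive beta subunits of the 20S core, 3 inducible catalytic subunits, 2 tissue-restricted core subunits, 17 subunits of the 19S cap (6 ATPases, 3 other base subunits and 8 lid subunits), 3 assembly chaperones of the 19S base, 5 activator genes and the regulator Psmf1. The remaining match, Psmc3ip, encodes a meiotic recombination factor that shares a name with the ATPase Psmc3 and is not a proteasome subunit. At least 1 count was recorded for 45 of the 46 genes.

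The proteasome is the protease of the cytosol and nucleus that degrades proteins tagged with ubiquitin. Its 20S core is a barrel of alpha rings, which gate entry, and beta rings, of which Psmb5, Psmb6 and Psmb7 carry the active sites, and the 19S cap binds ubiquitin chains, removes them and unfolds the substrate with a ring of ATPases. Interferon signalling, which works through STAT proteins, induces Psmb8, Psmb9 and Psmb10, which replace Psmb5, Psmb6 and Psmb7 in the immunoproteasome and alter the peptides available for MHC class I. In mouse embryos at the blastocyst stage, the inner cell mass (ICM) resolves into the epiblast (EPI), which forms the fetus, and the primitive endoderm (PrE), which lines the yolk sac.

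The samples were 171 single cells of 17 embryos in 6 groups. MUT cells carry the Stat3 -/- genotype and WT cells are Stat3 +/+. The groups were EPI MUT (9 cells of 4 embryos) and EPI WT (19 cells of 3 embryos) at E3.75, PrE MUT (14 cells of the same 4 embryos) and PrE WT (10 cells of the same 3 embryos) at E3.75, and ICM MUT (55 cells of 5 embryos) and ICM WT (64 cells of 5 embryos) at E3.5. The E3.75 stage comes from the sample titles, whereas the source label of those cells names E3.5. The sources used here do not state strain, sex, sorting or how libraries were made, and the embryo number was read from the titles. Cells are not replicates, so counts were summed per embryo and lineage into 24 sums, and levels are given as CPM, the counts scaled to a common library total with TMM factors, as mean ± SD over embryos.

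The median cell held 10407966 counts in EPI MUT, 11050855 in EPI WT, 11168799 in PrE MUT, 11123514 in PrE WT, 3404703 in ICM MUT and 5064704.5 in ICM WT. Stat3 was measured at a median of 4.34 CPM in EPI MUT against 155 CPM in EPI WT, 9.86 CPM in PrE MUT against 115 CPM in PrE WT, and 6.97 CPM in ICM MUT against 59.5 CPM in ICM WT, and no MUT embryo reached the lowest WT embryo of its lineage. The summed PrE markers lay between 3136 and 4494 CPM in PrE MUT, and between 1341 and 4124 CPM in PrE WT. PrE WT embryo 1 was the lowest, and it also held 4340 CPM of trophectoderm markers and 2377 CPM of EPI markers. EPI markers lay between 622 and 671 CPM in PrE MUT and between 746 and 2377 CPM in PrE WT. The summed EPI markers lay between 2199.7 and 3799.7 CPM in EPI MUT and between 3561 and 4551 CPM in EPI WT. In the ICM they lay between 852 and 2120.5 CPM in MUT and between 2855 and 3999 CPM in WT, so that those groups did not overlap. Summed leukocyte markers never exceeded 11.3 CPM. All 4 E3.75 MUT embryos were male by their sex-linked counts, whereas 2 of the 3 WT embryos were female, and the letters that close the titles, which the sources used here do not explain, differ between E3.5 and E3.75. Stage, title letter and depth therefore cannot be told apart, and genotype and sex are partly confounded at E3.75.

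Promoter sequence was available for 39 of the 46 genes from RefSeq (build GRCm38.p6), as 250 bases before the transcription start that RefSeq gives. Psmb9 and Psmb8 encode inducible subunits, and Psma1 and Psmc6 had the smallest p of the members in EPI WT against ICM WT, described below. The catalytic subunit Psmb5 had the smallest stage difference in WT. The 5 promoters below are those of these genes. They are written 5′ to 3′ in the direction of transcription, and the capitals mark every match, on either strand, to 4 sets of letters: TTCNNNGAA (a STAT site), TGACNNNGC (the core of the antioxidant response element), the core of the interferon-stimulated response element (GAAA on both sides of any 2 bases) and CCAAT (the CCAAT box). In these 5 windows the matches do not overlap. The GENCODE vM21 annotation places the start of Psmb8 at 34197721 and that of Psmb9 at 34187764. The windows of both therefore lie inside the genes as annotated there, and positions below count from the RefSeq start. The windows are chr17:34187331-34187580 on the minus strand for Psmb9, chr17:34197945-34198194 on the plus strand for Psmb8, chr7:114276117-114276366 on the minus strand for Psma1, chr14:45329574-45329823 on the plus strand for Psmc6 and chr14:54617996-54618245 on the minus strand for Psmb5.
Psmb9: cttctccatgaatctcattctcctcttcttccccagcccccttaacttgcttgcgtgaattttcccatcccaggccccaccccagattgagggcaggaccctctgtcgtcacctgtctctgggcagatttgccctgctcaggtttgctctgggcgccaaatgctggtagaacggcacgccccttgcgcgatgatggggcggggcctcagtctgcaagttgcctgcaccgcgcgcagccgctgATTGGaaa
Psmb8: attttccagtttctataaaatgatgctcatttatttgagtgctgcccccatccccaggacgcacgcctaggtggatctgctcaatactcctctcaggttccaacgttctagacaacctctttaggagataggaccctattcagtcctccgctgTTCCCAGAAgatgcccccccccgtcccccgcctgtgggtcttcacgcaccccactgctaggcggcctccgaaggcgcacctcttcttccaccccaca
Psma1: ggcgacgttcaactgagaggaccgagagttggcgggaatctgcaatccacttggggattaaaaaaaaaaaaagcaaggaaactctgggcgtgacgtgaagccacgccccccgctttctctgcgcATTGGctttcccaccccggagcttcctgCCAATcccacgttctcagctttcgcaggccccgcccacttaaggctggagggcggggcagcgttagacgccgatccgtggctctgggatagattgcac
Psmc6: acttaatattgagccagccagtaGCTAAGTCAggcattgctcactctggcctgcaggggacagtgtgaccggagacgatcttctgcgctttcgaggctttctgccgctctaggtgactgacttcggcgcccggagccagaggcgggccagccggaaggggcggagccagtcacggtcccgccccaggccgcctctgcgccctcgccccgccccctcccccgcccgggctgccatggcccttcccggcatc
Psmb5: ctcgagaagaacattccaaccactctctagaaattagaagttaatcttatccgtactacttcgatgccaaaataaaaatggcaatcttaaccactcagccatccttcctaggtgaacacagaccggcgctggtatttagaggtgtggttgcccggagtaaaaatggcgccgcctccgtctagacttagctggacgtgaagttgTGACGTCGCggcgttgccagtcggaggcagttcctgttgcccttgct
The STAT letters were found in the window of 1 gene, Psmb8, with the first base of the match at position -97 from the transcription start, and in 7.02% of all 32851 windows. The antioxidant letters were found for 5 genes (Psmb5, Psmb6, Psmc6, Psmd9 and Psmd12) and in 10.2% of all windows. The interferon letters were found for 3 genes (Psmb3, Psmd4 and Psmd9) and in 2.98% of all windows. The CCAAT letters were found for 15 genes, among them Psma1 at 2 positions and Psmb9 at position -8, and in 33.8% of all windows. A match is a description of the letters and not evidence of binding.

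Proteasome mRNAs took up a small, fairly even share of the E3.75 cells and a larger, more variable share of the ICM. The 46 genes together held 1.51% ± 0.150 of counts in EPI MUT and 1.484% ± 0.0266 in EPI WT (SD, n = 4 and 3 embryos). They held 1.44% ± 0.187 in PrE MUT and 1.43% ± 0.296 in PrE WT (SD, n = 4 and 3). In the ICM they held 1.90% ± 0.644 in MUT, with a range of 1.14% to 2.88%, and 2.44% ± 0.701 in WT, with a range of 1.70% to 3.59% (SD, n = 5 each). The genotype groups overlapped in every lineage, and the ranges of ICM WT and E3.75 WT met at 1 embryo, PrE WT embryo 3, which is a single cell and held 1.77%. Because these are shares of each library, a lower share does not tell whether a cell held less of these mRNAs or more of others.

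**Figure D1:**
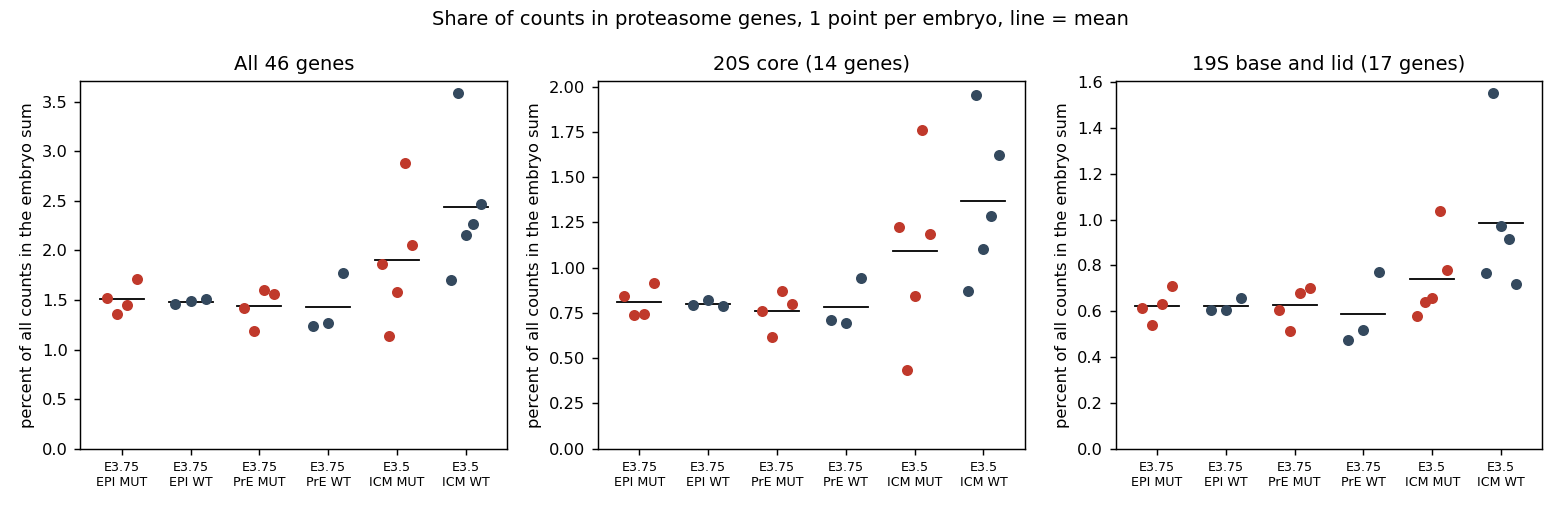
Percent of all counts in proteasome genes by group, 1 point per embryo, with the line at the group mean. The E3.75 groups average between 1.43% and 1.51% for all 46 genes, and the 5 embryos of ICM MUT and of ICM WT spread more widely, around 1.90% and 2.44%.

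In single cells, too, ICM WT stood highest. The median cell gave these genes 1.503% of its counts in EPI MUT and 1.49% in EPI WT, 1.55% in PrE MUT and 1.25% in PrE WT, and 1.53% in ICM MUT and 2.21% in ICM WT. Within each of the 5 title letters of the E3.5 cells, the median was lower in MUT than in WT cells, at 1.95% against 2.18% for letter D, 1.38% against 1.95% for E, 1.58% against 2.15% for F, 1.41% against 3.24% for G, where WT had 3 cells, and 1.46% against 2.63% for H. These cells come from the same 10 embryos, so the letters are not replicates of the genotypes.

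**Figure D2:**
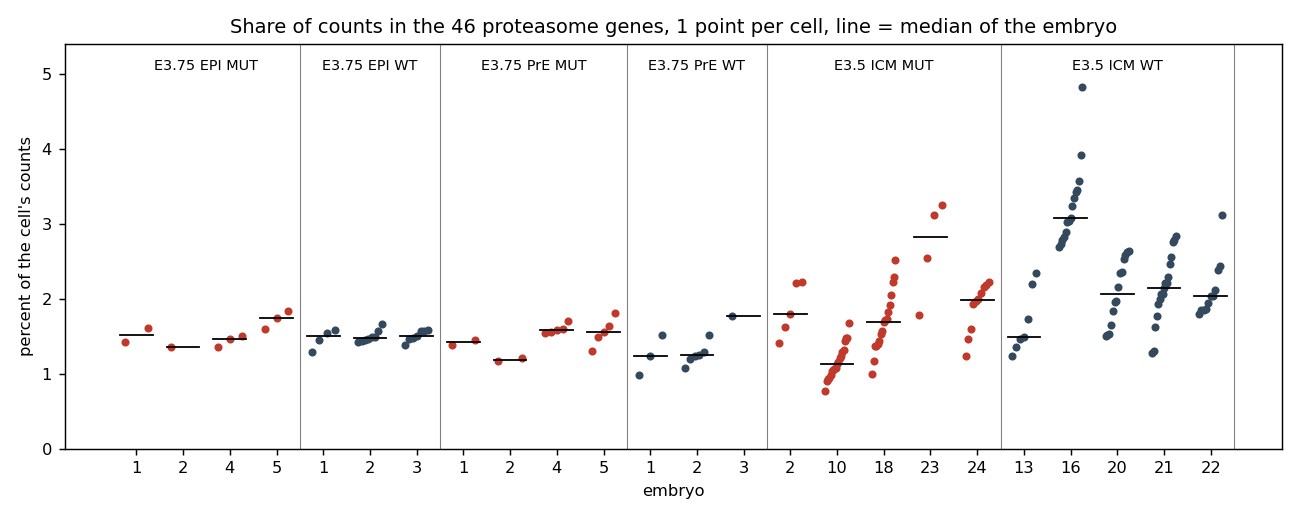
Percent of each cell's counts in the 46 genes, 1 point per cell, grouped by embryo, with a line at the embryo's median. The E3.75 cells lie between 0.988% and 1.83%, the ICM MUT cells between 0.767% and 3.26%, and the ICM WT cells between 1.24% and 4.82%.

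The spread among ICM embryos ran across the members. Among the 44 genes with counts in ICM MUT, embryo 10 was the lowest of the 5 embryos for 33 genes and embryo 23 the highest for 26. Among the 45 genes with counts in ICM WT, embryo 16 was the highest for 26 genes and embryo 22 for 14, while embryo 13 was the lowest for 20. Core and cap did not follow each other fully: the ratio of summed 20S core counts to summed 19S base and lid counts was 0.678 in ICM MUT embryo 10, and between 1.28 and 2.11 in the other 4 MUT embryos. In ICM WT it lay between 1.14 and 2.26, and in all 14 E3.75 sums between 1.13 and 1.504. Embryo 10 also held 2835 CPM of PrE markers, the most in the ICM, and its part in the results was not tested beyond the values given without it.

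**Figure D3:**
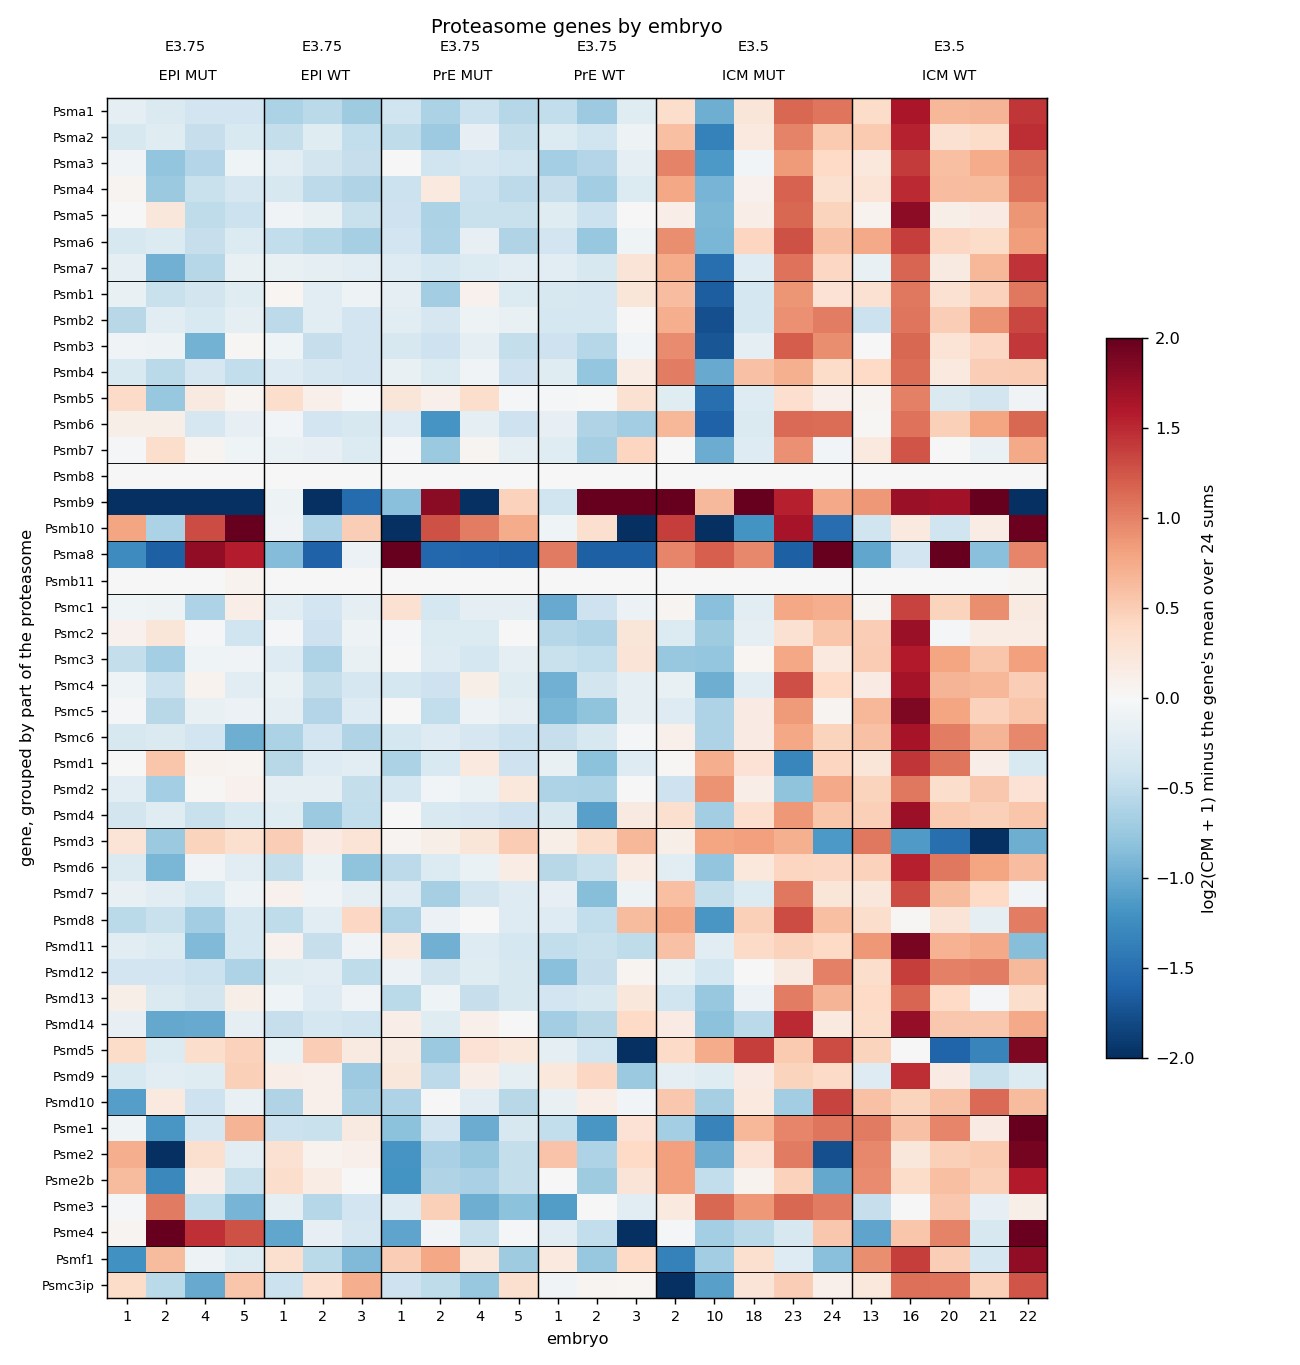
Level of each of the 46 genes (down the page, grouped by their place in the proteasome) in each of the 24 embryo sums (across), as log2(CPM + 1) minus the gene's mean, with colours cut at 2 in either direction. Most core and cap genes are above their mean in most ICM columns and below it in the E3.75 columns. Exceptions include ICM MUT embryo 10 and, for the cap, ICM MUT embryo 2. The 19S base and lid share of counts in embryo 2, 0.580%, lay under the mean of every E3.75 group. Psmb8 and Psmb11 stay at or next to 0 throughout.

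Per kb of exon, the same few small core subunits led in every group. The length is that of the annotated principal transcript, the longest where several tied. In EPI MUT the 5 highest were Psmb6 at 773, Psmb3 at 753, Psma7 at 688, Psmb2 at 621 and Psma1 at 575 CPM per kb. In EPI WT they were Psma7 at 820.5, Psmb3 at 716, Psmb6 at 677, Psmb2 at 595 and Psma5 at 503 CPM per kb. Psma7 is an alpha ring subunit, Psmb2 and Psmb3 are beta subunits without an active site, and Psmb6 carries the caspase-like site. In PrE MUT the order was Psma7 (767), Psmb3 (693), Psmb2 (673), Psmb6 (582) and Psma1 (500.2 CPM per kb), and in PrE WT it was Psma7 (880.2), Psmb3 (699.7), Psmb2 (659), Psmb6 (581) and Psma1 (511 CPM per kb). In ICM MUT the 5 highest were Psmb3 (1297), Psma7 (1175), Psmb6 (1139.5), Psma1 (1034) and Psma6 (1029 CPM per kb), and in ICM WT they were Psma7 (1590), Psmb3 (1489), Psma1 (1462), Psmb6 (1364) and Psmb2 (1331 CPM per kb). Psma7, Psmb3 and Psmb6 were thus among the top 5 in all 6 groups, and most neighbours in these orders differed by less than the larger of their SDs over embryos. The exceptions were Psma7 above Psmb3 in EPI WT and PrE MUT, and Psmb2 above Psma5 in EPI WT. The order depends on the length used. In CPM without it, Psma3 was the highest in EPI MUT (702.5) and PrE MUT (742.5), and Psma1 in ICM MUT (1242) and ICM WT (1756). Psma7 was the highest in EPI WT (749.9) and PrE WT (804.5 CPM).

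At the low end stood the inducible, tissue-restricted and retrocopy genes. Psmb8, Psmb11, the thymic core subunit, Psma8, the testis-specific alpha subunit, and Psme2b were among the 5 lowest in all 6 groups. The fifth was Psmb9 in EPI MUT (0.0382), EPI WT (2.41) and PrE MUT (7.84), Psmb10 in PrE WT (5.74) and ICM WT (12.3), and the activator Psme4 in ICM MUT (9.54 CPM per kb). Psmb11 had 4 counts in 2 cells of all 171. Psma8 was found in 1 to 18 cells a group, and the cell with the most held 51.7% of the group's counts in EPI MUT, 82.5% in EPI WT, 99.3% in PrE MUT and 36.3% in ICM MUT, and in PrE WT 1 cell held them all. Psme2b has 837 bases on chromosome 11 and is annotated as protein-coding, and its counts were between 4.52% and 9.42% of those of Psme2 in every sum. Since the 2 genes are near-identical copies whose reads the counting could split, its values are uncertain.

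The stage comparison asks how EPI and PrE cells at E3.75 differ from ICM cells at E3.5 of the same genotype. In WT embryos most members had lower values at E3.75, although none passed edgeR's adjusted threshold in the fit with the filter on low counts. Of 44 members tested in EPI against ICM, 42 had a negative log2 fold change, with a median of -1.01 for the members and -0.14 for all 13972 genes. In PrE against ICM, 42 of 44 were negative as well, with a median of -1.05 against -0.17 for all genes. For 25 members every EPI WT embryo lay below every ICM WT embryo, whereas 7.01% of all genes did so. For 23 members every PrE WT embryo did, against 8.35% of all genes. The 2 comparisons share the ICM embryos, so they are not independent of each other.

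No member passed the adjusted threshold of 0.05 with edgeR's quasi-likelihood test and its filter on low counts in either WT comparison. Of all genes, 0.308% passed in EPI and 0.349% in PrE. Without the filter, edgeR called Psma1 and Psmc6 as lower in EPI, where 0.346% of all genes passed. In PrE it then called Psma1 as lower, where 0.499% passed. At an unadjusted p under 0.05, 28 members were lower in EPI and none was higher, against 8.05% of all genes lower. In PrE 26 members were lower and none was higher, against 8.8% of all genes. DESeq2 called 18 members in EPI, against 7.65% of all genes, and 8 in PrE, against 9.08%, all of them lower. Limma-trend on embryo means gave all genes a positive median in both comparisons, and the members' medians stayed negative, at -0.19 in EPI and -0.34 in PrE. In EPI it called Psmd3 and Psme3 as higher, at 2.31 and 1.58, and Psma1 as lower, at -0.80, where 29.0% of all genes passed. Of these, Psme3 alone had the other sign with edgeR. In PrE limma-trend called Psmd3 alone, as higher at 2.31, where 15.7% passed. Without ICM WT embryo 13, edgeR called 7 members in EPI against ICM, where 1.18% of all genes passed. Of these, Psma1, Psma3, Psma4, Psmb2, Psmc6 and Psmd12 were lower and Psmd3 was higher. Embryo 13 was singled out after its values were seen, and over the 8 fits that each left out 1 embryo, 0 to 7 members were called.

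The alpha ring was even in this comparison. All 7 alpha subunits were lower in EPI WT than in ICM WT, the median of their log2 fold changes being -1.33, and each had an unadjusted p under 0.05. In PrE WT the median was -1.18, again with all 7 under 0.05. Psma1 measured 547, 589.7 and 521 CPM in the EPI WT embryos and 607, 515 and 718 CPM in the PrE WT embryos, against 1106, 2652, 1352, 1361 and 2311 CPM in the ICM WT embryos. Every E3.75 value lay below every ICM value. The log2 fold change was -1.65 ± 0.31 (SE, edgeR, adjusted p = 0.0594) in EPI and -1.48 ± 0.33 (SE, edgeR, adjusted p = 0.0860) in PrE. Psma6, a further alpha subunit, was at 465 ± 27.5 CPM in EPI WT against 1214 ± 365 CPM in ICM WT, a log2 fold change of -1.37 ± 0.26 (SE, edgeR, adjusted p = 0.0624). In PrE against ICM, Psma3 and Psma4 followed Psma1, each at -1.31 ± 0.30 (SE), with edgeR adjusted p of 0.0943 and 0.0954.

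The beta ring was less uniform. The 4 beta subunits without an active site had a median of -0.96 in EPI WT and -0.88 in PrE WT against the ICM, all 4 with an unadjusted p under 0.05 in each. Among the catalytic subunits, Psmb6 averaged 540.0 ± 65.9 CPM in EPI WT and 464 ± 96.9 CPM in PrE WT, against 1088 ± 324 CPM in ICM WT, log2 fold changes of -0.99 ± 0.27 and -1.21 ± 0.29 (SE). Psmb7, which carries the trypsin-like site, averaged 231 ± 12.5 CPM in EPI WT and 248 ± 96.1 CPM in PrE WT, against 378 ± 165 CPM in ICM WT, log2 fold changes of -0.69 ± 0.34 and -0.57 ± 0.40. Psmb7 shares 34.9% of its exon length with Nek6 on the other strand, and the sources used here do not state whether the counting used strand.

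Psmb5, which carries the chymotrypsin-like site, showed no detectable stage difference in WT. It measured 280.3, 235 and 219.6 CPM in EPI WT and 215, 218 and 273 CPM in PrE WT, against 227, 443, 179, 171 and 209 CPM in ICM WT. The groups overlapped fully, and ICM WT embryo 16 was the only sum of these above 300 CPM. The log2 fold changes were 0.01 ± 0.34 in EPI and -0.03 ± 0.36 in PrE (SE, edgeR, unadjusted p = 0.976 and 0.929), and the sign of both turned with the scaling. That differs from the -1.01 and -1.05 of the members' medians, but the difference between genes was not tested.

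In the 19S cap the ATPases resembled the alpha ring. Their median log2 fold change was -1.17 in EPI WT and -1.19 in PrE WT against ICM WT, with 5 of 6 ATPases at an unadjusted p under 0.05 in each. Psmc6 measured 295, 353 and 301 CPM in EPI WT and 335, 367 and 451 CPM in PrE WT, against 687, 1444, 934, 735 and 890.2 CPM in ICM WT. No E3.75 value reached the lowest ICM value. In EPI it had the smallest p of all members, at a log2 fold change of -1.55 ± 0.28 (SE, edgeR, adjusted p = 0.0543). The 3 other base subunits Psmd1, Psmd2 and Psmd4 had a median of -0.99 in EPI WT, all 3 with an unadjusted p under 0.05. The 8 lid subunits had a median of -0.84 in EPI WT, with 4 under 0.05, and of -0.97 in PrE WT, with 5 under 0.05.

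The lid subunit Psmd3 was higher at E3.75 than in 4 of the 5 ICM WT embryos, and it was singled out after its values were seen. It measured 399, 317 and 341 CPM in EPI WT and 308, 359.8 and 451 CPM in PrE WT, against 589, 129, 99.2, 70.5 and 144 CPM in ICM WT. ICM WT embryo 13, at 589 CPM, was above all E3.75 embryos, and the other 4 ICM embryos were below them. The log2 fold change was 0.75 ± 0.64 in EPI (SE, edgeR, adjusted p = 0.689) and 0.85 ± 0.65 in PrE (adjusted p = 0.606), and without embryo 13 it was 1.71 ± 0.29 in EPI (adjusted p = 0.0393). In single cells, 7 of 55 ICM MUT cells (12.7%) and 35 of 64 ICM WT cells (54.7%) had under 100 CPM of Psmd3, and none of the 52 E3.75 cells did.

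In MUT embryos, too, most members had lower values at E3.75. In EPI MUT against ICM MUT, 37 of 44 members were lower, with a median log2 fold change of -0.55, against -0.06 for all 11733 genes. In PrE MUT against ICM MUT, 41 of 44 were lower, with a median of -0.60, against -0.06 for all 12040 genes. All E3.75 MUT embryos are male and 4 of the 5 ICM MUT embryos female. With embryo sex as a covariate the medians were -1.11 in EPI and -1.09 in PrE, with all genes at 0.61 and 0.78. Those fits set E3.75 against ICM MUT embryo 23, the only male one. That embryo was the highest of its group for 26 of 44 genes. edgeR called 1 member in EPI, Psmb9, where 0.0682% of all genes passed (0.0933% without the filter on low counts, with Psmb9 again the member called), and none in PrE, where 0.507% passed. At an unadjusted p under 0.05, 5 members were lower and 1 was higher in EPI, against 5.17% and 2.91% of all genes, and 5 were lower in PrE, against 5.31% (9.46% in either direction). In EPI, DESeq2 called Psmb9, where 3.53% of all genes passed, and limma-trend called Psmb9 and Psme4, where 1.9% passed. In PrE neither called a member. The groups were apart for Psmd12 and Psmb9 in EPI, and for the 19S chaperone Psmd5 in PrE, against 2.8% and 3.14% of all genes.

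ICM MUT embryo 10, the lowest of its group for 33 of 44 genes, weighed on these values and was singled out after they were seen. Over the 9 fits that each left out 1 embryo, 2 to 21 members had an unadjusted p under 0.05 in EPI, and 0 to 21 in PrE. Without embryo 10, 21 members did in EPI, where 10.7% of all genes did, and 21 in PrE, where 14.7% did. edgeR then called Psmb9 in EPI, where 0.157% of all genes passed. In PrE, where 1.5% passed, it called Psma1 at -1.30 ± 0.26 (SE, adjusted p = 0.0401) and Psma6 at -1.31 ± 0.25 (adjusted p = 0.0366). Psma1 measured 751, 698, 656 and 658 CPM in EPI MUT and 644, 552, 633 and 574 CPM in PrE MUT, against 1090, 433, 1005, 1894 and 1790 CPM in ICM MUT. Embryo 10, at 433 CPM, was below all E3.75 embryos and the other 4 were above them. Without ICM MUT embryo 23 the EPI median was -0.36. Among the genes with the smallest p in MUT, the lid subunit Psmd8 averaged 259 ± 25.1 CPM in EPI MUT against 554 ± 267 CPM in ICM MUT, at -1.12 ± 0.44 (SE, edgeR, adjusted p = 0.471), and Psma6 and Psma1 in PrE were at -1.05 and -1.04.

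Whether the stage difference itself depended on genotype was tested as an interaction. Both interactions contain the difference of MUT against WT in the ICM, given below, where most members were lower in MUT. They use the same ICM embryos, so they are not independent of that difference or of each other. For EPI, 38 of 44 members had a less negative or more positive stage difference in MUT than in WT, with a median of 0.50 against -0.10 for all 15756 genes. For PrE, 39 of 44 did, with a median of 0.42 against 0.04 for all 15614 genes. With embryo sex as a covariate these medians were 0.23 in EPI and 0.094 in PrE, with all genes at -0.041 and 0.32. edgeR called none in either, where 0.0% of all genes passed, and 4 members in EPI and 2 in PrE had an unadjusted p under 0.05, against 9.25% and 9.2% of all genes. DESeq2 called Psmb9 and Psme4 in EPI, where 3.18% of all genes passed, and none in PrE; limma-trend called none in either. In EPI the next smallest p belonged to Psmf1, at 1.63 ± 0.76 (SE). In PrE the smallest p belonged to the ATPase Psmc5 at 1.25 ± 0.50, Psmf1 at 1.73 ± 0.73 and the lid subunit Psmd6 at 0.94 ± 0.45 (SE).

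**Figure D4:**
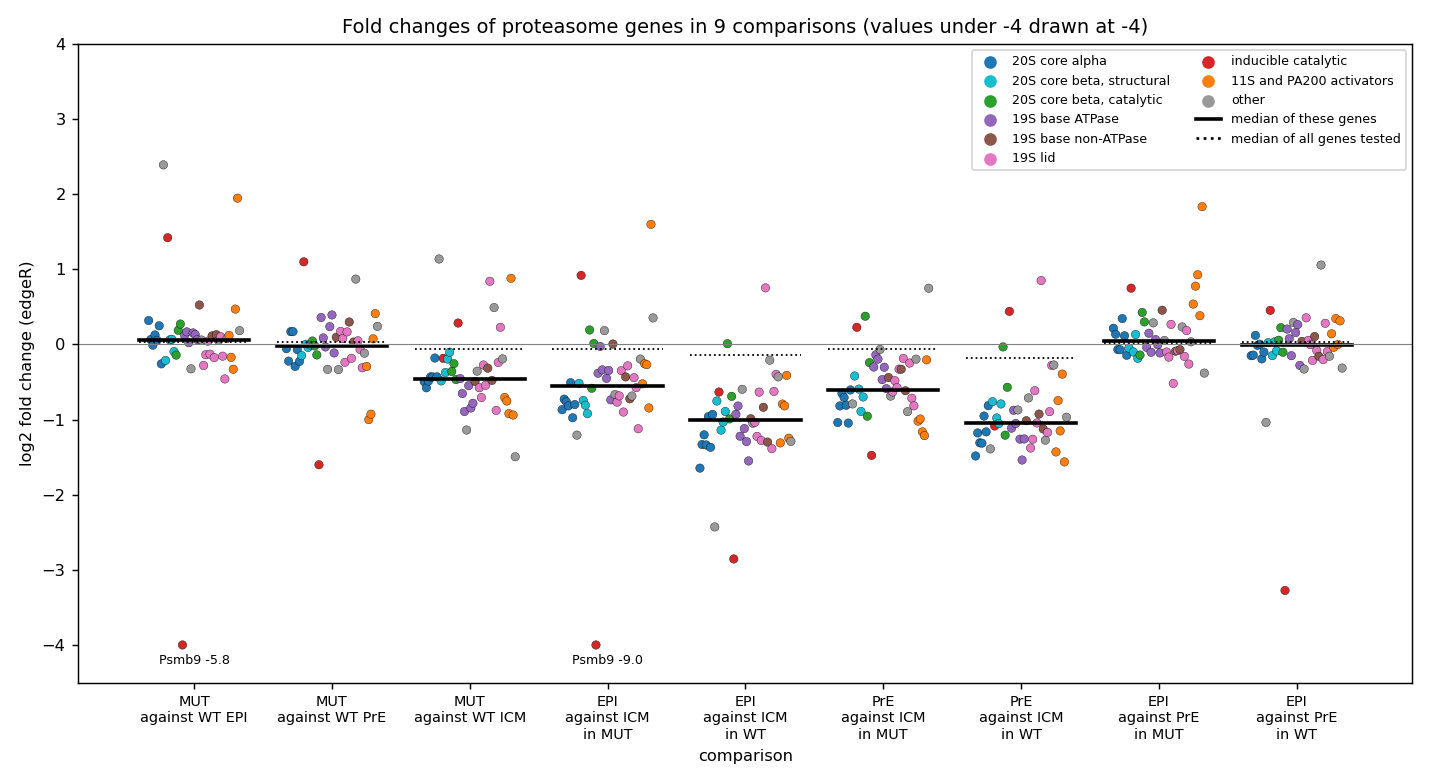
edgeR log2 fold change of every tested member in 9 comparisons, 1 point per gene coloured by its place in the proteasome; the solid line is the median of the members, the dotted line that of all genes tested, and values under -4 are drawn at -4 with their value. The solid lines sit near -1 in both WT stage comparisons, at -0.55 and -0.60 in the MUT ones, at -0.46 for MUT against WT ICM, and near 0 elsewhere.

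The effect of Stat3 loss was compared within each lineage. In the ICM most members had lower values in MUT, and none passed edgeR's adjusted threshold. Of 44 members tested, 38 had a negative log2 fold change, with a median of -0.46 against -0.05 for all 12270 genes. edgeR called no member, as it called no gene (0.0%), and DESeq2 and limma-trend also called none. At an unadjusted p under 0.05, 5 members were lower and 1 was higher, against 3.59% and 3.06% of all genes (6.64% in either direction). The median was -0.22 without MUT embryo 10 and -0.24 without WT embryo 16. In a limma-voom fit of sums per embryo and title letter, with the letter as a covariate and the embryo as a random block, 8 of 43 members were called, 7 lower and Psmd3 higher, where 5.9% of all genes were called and the median of all genes was 0.41.

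Among the 19S ATPases, all 6 were lower in ICM MUT, with a median of -0.72, and Psmc3, Psmc5 and Psmc6 had an unadjusted p under 0.05. Psmc3 measured 229, 226, 399, 657 and 440.2 CPM in ICM MUT, against 548, 1161, 666, 565 and 683 CPM in ICM WT, a log2 fold change of -0.89 ± 0.38 (SE, edgeR, adjusted p = 0.734). MUT embryo 23 reached into the WT range. The alpha subunits had a median of -0.43 and the lid subunits of -0.41. The lid subunit Psmd6 was the only member whose groups did not overlap, with MUT below WT, against 0.945% of all genes (and 0.603% with MUT above WT): it measured 309, 207, 416, 480.3 and 475 CPM in ICM MUT, against 494, 1057, 740.5, 618 and 551 CPM in ICM WT. Its log2 fold change was -0.88 ± 0.35 (SE, edgeR, adjusted p = 0.728).

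Psmf1, which encodes PI31, a protein that binds the 20S core and can inhibit it, had the smallest p of the members in the ICM. It measured 20.6, 33.2, 68.5, 45.4 and 30.2 CPM in ICM MUT, against 104, 144, 76.7, 42.6 and 188 CPM in ICM WT. WT embryo 21, at 42.6 CPM, lay within the MUT range, and the other 4 WT embryos lay above it. The log2 fold change was -1.49 ± 0.52 (SE, edgeR, adjusted p = 0.727). At E3.75 it was 50.9 ± 25.6 CPM in EPI MUT against 44.7 ± 20.5 CPM in EPI WT, and 66.9 ± 25.8 CPM in PrE MUT against 55.5 ± 21.2 CPM in PrE WT.

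At E3.75 the members' median difference between genotypes was close to 0 without covariates. In EPI, 15 of 44 members were lower and 29 higher in MUT, with a median log2 fold change of 0.06 against 0.04 for all 12298 genes. In PrE, 23 of 43 were lower and 20 higher, with a median of -0.02 against 0.03 for all 11765 genes. With embryo sex as a covariate the PrE median was -0.36, with all genes at 0.46. With the title letter it was -0.33, with all genes at 0.40. The MUT embryos there are all male and 2 of the 3 WT embryos female. The male WT embryo, embryo 3, is also the only WT embryo that shares a title letter with MUT. Both values therefore rest on that embryo for WT, and its PrE sum is a single cell. edgeR called no member in either, as it called no gene (0.0%). At an unadjusted p under 0.05, 3 members were higher and 1 lower in EPI, against 1.47% and 3.16% of all genes, of which 4.63% passed in either direction. In PrE no member did, where 4.63% of all genes passed and 2.24% were lower. DESeq2 called Psmb9 and Psme4 in EPI, where 1.52% of all genes passed, and none in PrE, and limma-trend called none in either. With embryo sex as a covariate, edgeR called Psmd5 in PrE at a log2 fold change of 4.84, where 1.84% of all genes passed. That call also rests on the single cell of WT embryo 3, the lowest PrE sum for Psmd5, as given below.

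In EPI the MUT embryos lay above the WT embryos without overlap for 5 members (Psma1, Psma6, Psmb7, Psmd1 and Psme4), against 2.22% of all genes, and below them for Psmb9, against 5.37%. Psmd1, the large scaffold subunit of the 19S base, measured 425, 625.4, 448 and 445 CPM in EPI MUT, against 289.9, 358 and 364 CPM in EPI WT, a log2 fold change of 0.53 ± 0.20 (SE, edgeR, adjusted p = 0.865). In PrE no member's groups were apart, whereas MUT lay below WT for 3.11% of all genes. The smallest p there belonged to Psme2, a subunit of the 11S activator, at 26.3 ± 5.31 CPM in PrE MUT against 51.6 ± 20.005 CPM in PrE WT, a log2 fold change of -0.9996 ± 0.46 (SE). Psma5, at -0.29 ± 0.15, and Psmc5, at 0.39 ± 0.23, came next, all with an edgeR adjusted p of 1.0.

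The inducible subunits were scarce, and each behaved differently. Psmb8 had 0 counts in all 171 cells, out of 1152245841 counts. A count of 0 allows up to 0.00260 CPM over all cells, and 0 of 171 cells allows up to 1.75% of cells with a count if cells are taken as independent draws, which cells of 17 embryos are not. Psmb8 is therefore below detection here, not shown to be absent. Molecular identifiers are not mentioned in the sources used here, so such limits cover counting error only.

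Psmb9 was detected in every group and was close to 0 in Stat3 -/- epiblast. It measured 0.0869, 0, 0.0313 and 0.0882 CPM in the EPI MUT embryos 1, 2, 4 and 5, which is 2, 0, 1 and 3 counts, against 6.78, 1.11 and 1.89 CPM in EPI WT. In PrE it measured 3.67, 28.3, 0 and 10.48 CPM in MUT, against 5.33, 37.0 and 52.0 CPM in WT. In the ICM it measured 36.6, 12.1, 60.7, 23.6 and 13.1 CPM in MUT, against 14.2, 26.8, 25.8, 51.1 and 0.937 CPM in WT. All EPI MUT embryos lay below all EPI WT embryos, while the genotypes overlapped in PrE and ICM. The 4 EPI MUT embryos are the ones that gave the PrE MUT cells, and in 3 of them the PrE value was over 3 CPM.

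Psmb9 was the 1 member that passed edgeR's adjusted threshold in any of the 12 comparisons, when fitted with all embryos, the filter on low counts and no covariate. It fell in EPI MUT relative to ICM MUT, with a log2 fold change of -8.96 ± 1.46 (SE, edgeR, adjusted p = 0.0478). There the gene could pass the filter on low counts only through ICM MUT, the group where it was high. Without the filter it was -8.94 ± 1.71 (SE, edgeR, adjusted p = 0.0382). The size rests on 6 counts in EPI MUT, and the call was lost without the EPI sum of 1 cell, with embryo sex as a covariate, without the shallow cells and without any 1 of the 8 embryos other than ICM MUT embryo 10, where the edgeR adjusted p ranged up to 0.222. The log2 fold change stayed between -9.29 and -8.54 in these fits, and it was -3.40 with limma-trend. In WT the same stage difference was -2.86 ± 1.21 (SE, edgeR, adjusted p = 0.325). The interaction of genotype and stage was -6.12 ± 1.52 (SE, edgeR, adjusted p = 0.230; DESeq2, adjusted p = 0.000769). MUT against WT in EPI was -5.85 ± 1.57 (SE, edgeR, adjusted p = 0.341; DESeq2, adjusted p = 0.0467), where the gene could pass the filter on low counts only through EPI WT. Without the filter it was -5.88 ± 2.33 (SE, edgeR, adjusted p = 0.483), and with limma-trend it was -1.0013 (adjusted p = 0.768), so its size depends on the fit. EPI against PrE was -3.27 ± 1.18 in WT (SE, edgeR, adjusted p = 0.425; DESeq2, adjusted p = 0.0343), and in MUT the gene did not pass the filter on low counts.

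Counts of Psmb9 were uneven over cells. A count was recorded in 5 of 9 EPI MUT cells and 10 of 19 EPI WT cells, in 8 of 14 PrE MUT cells and 8 of 10 PrE WT cells, and in 52 of 55 ICM MUT cells and 52 of 64 ICM WT cells. The median cell had 0.0879 CPM in EPI MUT and 0.0859 CPM in EPI WT, so that the difference between the EPI genotypes came from the upper cells, which reached 0.188 CPM in MUT and 18.6 CPM in WT. Psmb9 lies beside Tap1, a subunit of the peptide transporter of MHC class I, on the other strand, and 15.7% of its exon length overlaps Tap1. Tap1 had 0 counts in EPI MUT and 3 in EPI WT. Within title letter A, which holds male embryos of both genotypes, Psmb9 was at 0.0313 and 0.0882 CPM in EPI MUT embryos 4 and 5, against 1.89 CPM in EPI WT embryo 3.

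Psmb10, the inducible counterpart of Psmb7, overlapped between genotypes in every lineage. It measured 18.3, 6.20, 26.6 and 58.6 CPM in EPI MUT, against 9.61, 6.29 and 14.7 CPM in EPI WT. In PrE it measured 0.131, 26.01, 21.7 and 17.6 CPM in MUT, against 9.51, 12.9 and 0.153 CPM in WT. In the ICM it measured 28.2, 1.484, 3.9002, 34.1 and 2.89 CPM in MUT, against 7.51, 11.8, 7.46, 11.4 and 42.5 CPM in WT. The log2 fold changes of MUT against WT were 1.42 ± 0.87 in EPI, 1.10 ± 1.72 in PrE and -0.18 ± 1.02 in the ICM (SE). None passed a test, and the smallest unadjusted edgeR p was 0.139.

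The constitutive counterparts Psmb5, Psmb6 and Psmb7 had no unadjusted p under 0.05 between genotypes. In MUT against WT, Psmb5 was at -0.14 ± 0.28 in EPI, 0.05 ± 0.18 in PrE and -0.36 ± 0.41 in the ICM, on the log2 scale with SE. Psmb6 was at 0.19 ± 0.18, -0.02 ± 0.26 and -0.26 ± 0.46 in the same order, and with embryo sex as a covariate Psmb5 in EPI and both genes in PrE had the other sign. Psmb7 was at 0.27 ± 0.18, -0.14 ± 0.31 and -0.47 ± 0.41, and in EPI its MUT embryos, at 257, 337, 274 and 249 CPM, were all above its WT embryos, at 241, 235 and 217 CPM. In MUT against the ICM, Psmb5 was at 0.19 ± 0.42 in EPI and 0.38 ± 0.37 in PrE, Psmb6 at -0.58 ± 0.50 and -0.96 ± 0.50, and Psmb7 at 0.01 ± 0.40 and -0.24 ± 0.39. Per kb of exon, Psmb6 and its inducible counterpart Psmb9 stood at 773 and 0.0382 CPM per kb in EPI MUT, and at 677 and 2.41 CPM per kb in EPI WT.

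**Figure D5:**
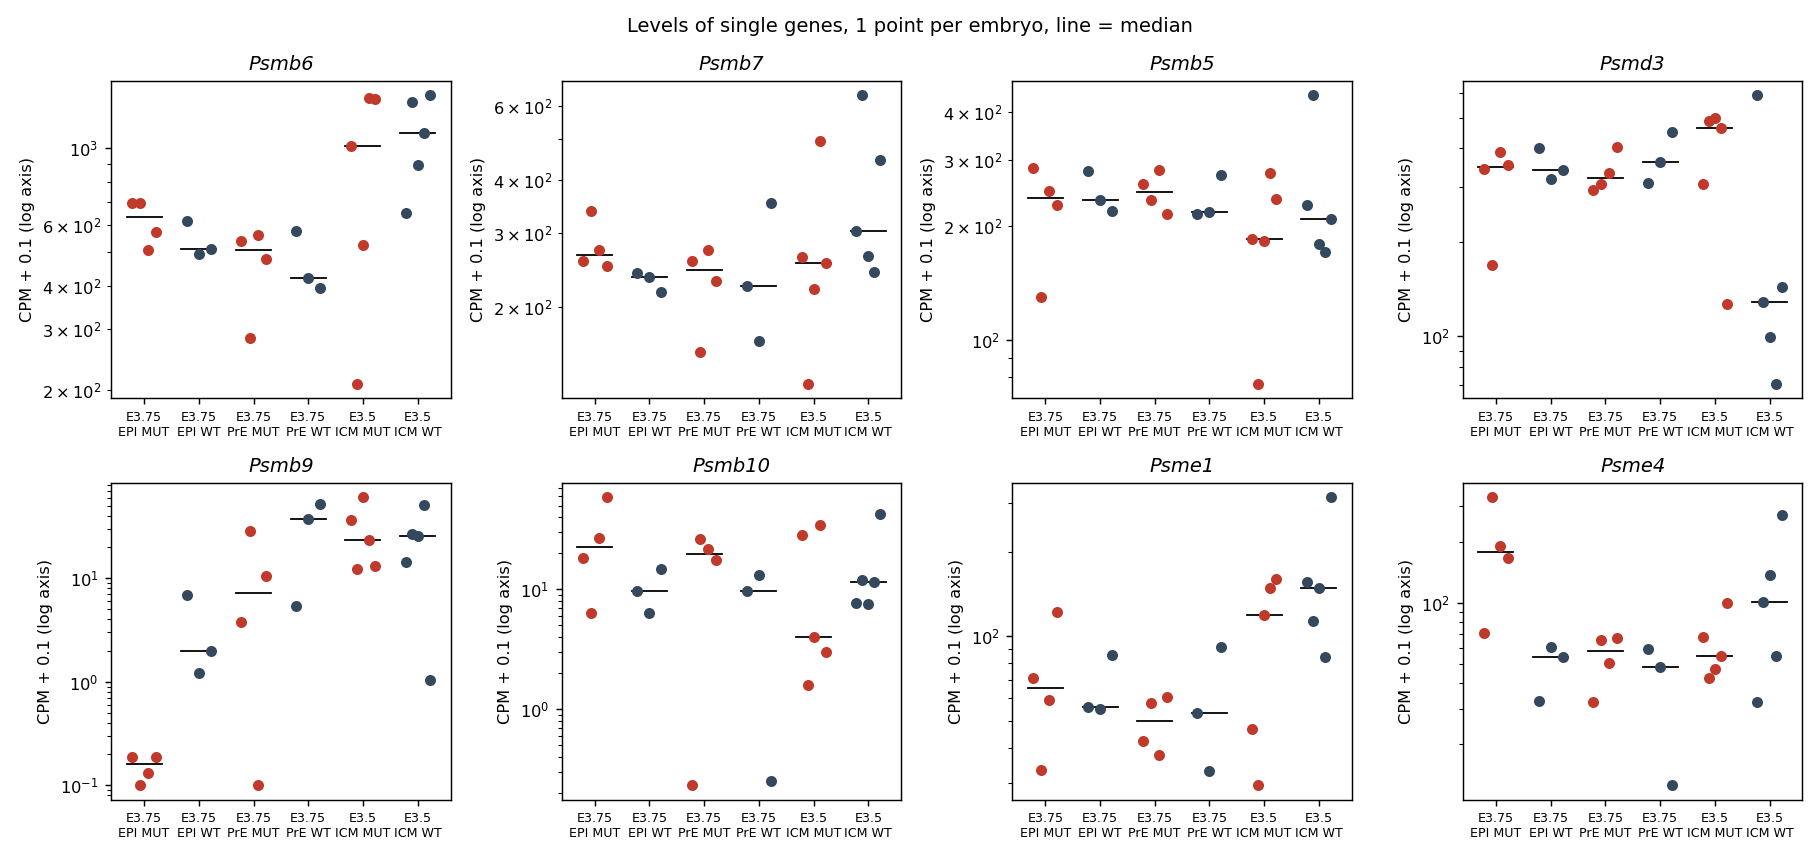
CPM + 0.1 on a log axis for 8 genes in the 6 groups, 1 point per embryo, with a line at the group median. All 4 EPI MUT embryos sit near the floor of the axis for Psmb9 (0 to 0.0882 CPM), Psme4 reaches its top there (331 CPM), Psmb5 overlaps between all groups, and Psmd3 is low in 4 of the 5 ICM WT embryos.

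The activators open the core without ubiquitin. Psme4, which encodes PA200, an activator known for histone degradation, was higher in every EPI MUT embryo than in any EPI WT embryo. It measured 70.5, 331, 189 and 166 CPM in EPI MUT, against 32.8, 60.6 and 54.1 CPM in EPI WT. In PrE it measured 32.4, 65.4, 50.1 and 66.7 CPM in MUT, against 58.7, 48.2 and 12.5 CPM in WT. In the ICM it measured 67.2, 42.3, 46.9, 54.2 and 99.1 CPM in MUT, against 32.3, 100.7, 137, 54.3 and 269.8 CPM in WT. In EPI, MUT embryo 2, a single cell, was the highest, and in the other lineages the genotypes overlapped. Within title letter A, EPI MUT embryos 4 and 5 had 189 and 166 CPM, against 54.1 CPM in EPI WT embryo 3.

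With edgeR, no contrast of Psme4 passed. MUT against WT was 1.95 ± 0.52 in EPI (SE, edgeR, adjusted p = 0.341; DESeq2, adjusted p = 0.0152), and 1.51 without the sum of 1 cell. EPI against PrE within MUT was 1.83 ± 0.46 (SE), with an adjusted p of 0.1004 in edgeR and 0.00381 in DESeq2. The EPI value exceeded the PrE value in all 4 embryos, but both p-values take the sums as unpaired. With the embryo as a block, edgeR called no member. EPI against ICM was 1.60 ± 0.48 in MUT (SE, edgeR, adjusted p = 0.225) and -1.25 ± 0.64 in WT (adjusted p = 0.435; 0.88 with limma-trend), and their difference was 2.85 ± 0.80 (adjusted p = 0.230; DESeq2, adjusted p = 0.0236). The interaction of genotype and lineage was 1.49 ± 0.75 (SE, edgeR, adjusted p = 0.915).

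The 11S activators Psme1 and Psme2 form a ring on the core. Psme1 averaged 71.2 ± 37.2 CPM in EPI MUT against 65.4 ± 17.6 in EPI WT, 49.4 ± 11.3 in PrE MUT against 59.3 ± 29.9 in PrE WT, and 100.8 ± 59.6 in ICM MUT against 164 ± 88.9 in ICM WT. Its partner Psme2 averaged 44.8 ± 27.6 CPM in EPI MUT against 50.2 ± 4.81 in EPI WT, and 52.4 ± 35.01 in ICM MUT against 88.0 ± 48.7 in ICM WT. Both are induced by interferon in mouse cells. In WT, the stage difference of Psme1 was -1.31 ± 0.45 in EPI and -1.43 ± 0.53 in PrE, and that of Psme2 was -0.79 ± 0.45 and -0.75 ± 0.53, on the log2 scale with SE. With limma-trend, where the median of all genes was 0.68 in EPI and 0.56 in PrE, Psme1 was at 0.19 in EPI and Psme2 at 0.31 and 0.19.

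Psme3, the nuclear activator of this family, was the 1 member higher in ICM MUT at an unadjusted p under 0.05. It measured 67.6, 132, 108, 132 and 122 CPM in ICM MUT, against 42.3, 59.2, 86.0, 52.4 and 63.9 CPM in ICM WT. MUT embryo 2 and WT embryo 20 overlapped. The log2 fold change was 0.88 ± 0.41 (SE, edgeR, adjusted p = 0.749). In PrE MUT it was at 48.7 ± 24.3 CPM against those ICM MUT values, -1.21 ± 0.44 (SE, edgeR, adjusted p = 0.335), the smallest p of that comparison. In WT against the ICM its sign depended on the method, at -0.41 ± 0.38 in EPI and -0.39 ± 0.49 in PrE (SE, edgeR), against 1.58 and 1.06 with limma-trend. Psme3 lies on chromosome 11 at 376.7 kb from Stat3, and 10 of the 46 genes are on that chromosome. Of these, 4 lie within 5 Mb of the deleted gene: Psmc3ip at 152 kb, Psme3, Psmd3 at 2.19 Mb and Psmb3 at 3.17 Mb. In the ICM their log2 fold changes were -1.14 ± 0.70, 0.88 ± 0.41, 0.84 ± 0.58 and -0.19 ± 0.48 (SE), and whether their distance from the Stat3 allele plays a part was not tested.

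The chaperone Psmd10, also called gankyrin, is the only X-linked member. It averaged 64.7 ± 22.996 CPM in EPI MUT against 62.1 ± 19.7 in EPI WT, 62.9 ± 13.01 in PrE MUT against 78.0 ± 8.08 in PrE WT, and 102 ± 63.8 in ICM MUT against 129 ± 26.4 in ICM WT. It was lower in EPI WT than in ICM WT by a log2 value of -1.05 ± 0.34 (SE, edgeR, adjusted p = 0.203), with no overlap, but at 0.24 with limma-trend. Psmd5, another assembly chaperone of the 19S base, measured 113, 58.7, 121 and 116 CPM in PrE MUT, against 130.02, 166, 259, 143 and 246 CPM in ICM MUT, without overlap, and 87.3, 74.9 and 3.44 CPM in PrE WT. The last of these is the PrE WT sum of 1 cell.

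Between the lineages at E3.75 the members' median difference was close to 0. In EPI against PrE of MUT embryos 22 of 42 members were higher, and their median log2 fold change was 0.04 against 0.02 for all 10698 genes, and in WT embryos 21 of 44, with a median of -0.0012 against 0.03 for all 12733 genes. edgeR called no member in either, where 1.65% of all genes passed in MUT and 0.0314% in WT. At an unadjusted p under 0.05 there was 1 member in each, Psme4 in MUT and Psmb9 in WT, against 10.2% and 9.35% of all genes. DESeq2 called the same 1 member in each, where 5.9% and 5.71% of all genes passed, and limma-trend called none. The next smallest p in MUT belonged to the deubiquitinase of the lid, Psmd14, at -0.52 ± 0.24, and Psmd1, at 0.46 ± 0.22, and in WT to Psmd11, at 0.36 ± 0.19, and Psmc6, at -0.28 ± 0.18 (SE). In the interaction of genotype and lineage, edgeR called no gene (0.0%), no member had an unadjusted p under 0.05 where 5.51% of all genes did, DESeq2 and limma-trend called no member, and the median of the 44 members was 0.02. Besides Psme4, the smallest p belonged to Psmb9 at -4.24 ± 2.39 and Psma1 at 0.34 ± 0.20.

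Genes that work with the proteasome were read from the same fits as 3 lists: 14 matched assembly and associated factors, 18 genes of ubiquitin supply and shuttling, and 20 genes of MHC class I presentation and the interferon response. edgeR called none of their tested members in any of the 12 comparisons. In EPI WT against ICM WT, where the proteasome genes had a median log2 fold change of -1.01, the medians of these lists were -0.034, 0.022 and -0.030, with 14, 18 and 16 members tested. In PrE WT against ICM WT they were -0.17, -0.23 and 0.66. In MUT against WT they were -0.027, 0.13 and -0.030 in the ICM, 0.036, 0.030 and -0.0065 in EPI, and 0.11, 0.11 and 0.32 in PrE.

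Single genes of these lists are given by their smallest p. Among the assembly factors, Pomp, the chaperone that matures the core, was at -1.18 ± 0.30 and Psmg2, a chaperone of the alpha ring, at -1.28 ± 0.39 in EPI WT against ICM WT, on the log2 scale with SE, with edgeR adjusted p of 0.115 and 0.175. In PrE WT against ICM WT they were at -0.85 ± 0.31 and -1.17 ± 0.42. Of the ubiquitin genes, the shuttle factor Ubqln1 was at 1.83 ± 0.34 (edgeR, adjusted p = 0.0594) and the polyubiquitin gene Ubb at -1.34 ± 0.39 in EPI WT against ICM WT, and they were at 1.62 ± 0.43 and -1.83 ± 0.40 in PrE WT. Of the MHC and interferon genes, the class I heavy chain H2-K1 was at -1.97 ± 0.51 in EPI WT against ICM WT (edgeR, adjusted p = 0.115), and the interferon receptor subunit Ifnar2 was at 5.23 ± 1.71 in MUT against WT ICM (adjusted p = 0.727) and -3.44 ± 1.98 in EPI (adjusted p = 1.0).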

How the data were processed

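RNA of single mouse cells (ICM, EPI, PrE) was sequenced, and the authors deposited whole-number counts per gene, without normalization, with 171 cell columns and 49671 gene rows named by Ensembl identifiers. STAR and HTSeq with build mm10 are named, per the submitters' processing notes. Versions, strand setting and library construction: not given in the sources used here. The GENCODE vM21 annotation of that build named 49326 rows, and the other 345 held 0.0101% of counts. No 2 cells had identical counts. The members, gene lists and tests were chosen with earlier results of these data known.

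Cells of 1 embryo and lineage were added up (24 sums, of which 2 hold 1 cell). Each comparison was fitted on all genes of its own groups with edgeR 4.0.16 in R 4.3.3 (quasi-likelihood test, TMM, filterByExpr with a minimum count of 10, robust), with Benjamini-Hochberg adjustment over all genes tested and a threshold of 0.05. SE is the absolute log2 fold change over the square root of F, and p-values measure the spread between embryos. Differences of effects were tested as interactions. Of the 46 members, 42 to 44 passed the filter on low counts, depending on the comparison, and a gene can pass through 1 group alone. Alternatives were other size factors, no filter, DESeq2 1.42.0, limma-trend (limma 3.58.1) on embryo means of log2(CPM + 1), covariates, and leaving out cells or embryos. The scripts were tested on simulated data.

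EPI and PrE sums of 1 embryo pair by origin (r of their deviations 0.0421 to 0.144), whereas MUT and WT embryos share numbers only (r -0.0353 to 0.127). Named were Psmb5 to Psmb10, Psme1 to Psme4, Psmd10, and per comparison up to 8 members past the threshold or, where fewer than 3 passed, the 3 of smallest p; per group the 5 highest and 5 lowest per kb of exon; and of the lists the 2 of smallest p, here for the WT stage and genotype comparisons, in part. Cells were not clustered, and no doublet search was run. Promoters are RefSeq's, build GRCm38.p6.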

Additional observations from a re-analysis of the deposited data

Results flagged for a closer look

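In 112 tests of groups of 4 or 5 embryos, 1 embryo stood apart from the rest in 14. Chance gives about 1 in 20 for independent values with a normal spread. Here members moved together within an embryo, and named members were chosen in part by their values. The 14 are therefore not shown to exceed chance. In ICM WT, embryo 16 was the highest for Psmb5 at 443 CPM (median of the others 194), Psmc3 at 1161 CPM (616), Psmc5 at 1709.6 CPM (713) and Psmd14 at 1319 CPM (565). Embryo 22 was the highest for Psmb10 at 42.5 CPM (9.44), embryo 21 for Psmd10 at 175 CPM (119.5) and embryo 13 for Psmd3 at 589 CPM (114). In ICM MUT, embryo 23 was the highest for Psmd14 at 1094 CPM (352). In PrE MUT, embryo 1 was the highest for Psma3 at 904 CPM (679.9), and embryo 2 was the highest for Psma4 at 724 CPM (466.02) and the lowest for Psma5 at 463 CPM (532). In EPI MUT, embryo 5 was the lowest for Psmc6 at 232 CPM (368), embryo 4 for Psmb3 at 349 CPM (646), and embryo 2, a single cell, was the highest for Psmd1 at 625.4 CPM (445). The causes were not tested.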

How the results depend on the processing

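Of the gene fold changes under other settings, 1049 kept their direction and their side of the threshold, 31 passed only there, 11 passed only in the fit reported and 64 changed sign; causes were not tested. The number of members called in MUT against WT was 8 in the ICM with the title letter and 2 in EPI with DESeq2. It was 1 (Psmd5) in PrE with sex as a covariate, where WT rests on a single cell. In EPI against ICM of WT it was 2 without the filter (Psma1 and Psmc6, where 0.346% of all genes passed), 18 with DESeq2 and 3 with limma-trend. In EPI against ICM of MUT it was 2 with limma-trend and 0 without shallow cells, without sums of 1 cell or with sex. In PrE against ICM of WT it was 1 without the filter (Psma1, where 0.499% of all genes passed), 8 with DESeq2 and 1 with limma-trend. In EPI against PrE DESeq2 called 1 in MUT and 1 in WT, and 2 for genotype by stage in EPI. Leaving out 1 embryo gave 0 to 7 in EPI against ICM of WT, 0 to 1 in MUT, and 0 to 2 in PrE against ICM of MUT. The member median moved to -0.36 with sex and -0.33 with the letter in MUT against WT PrE, where WT then rests on a single cell. With limma-trend it moved to -0.19 (WT) and 0.036 (MUT) in EPI against ICM and to -0.34 (WT) and -0.035 (MUT) in PrE against ICM; the median of all genes was then 0.68, 0.65, 0.56 and 0.54, and relative to it the members stood at -0.86, -0.62, -0.90 and -0.58. With sex it moved to -1.11 in EPI and -1.09 in PrE against ICM of MUT, with all genes at 0.61 and 0.78. There the ICM side rests on embryo 23, the only male ICM MUT embryo.

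Signs changed as follows. In EPI against ICM of WT, Psmb5 was at -0.033 with RLE and with DESeq2 and -0.11 to 0.31 without 1 embryo, and limma-trend gave 0.15 for Psmb7, 0.24 for Psmd10, 0.19 for Psme1, 0.31 for Psme2, 1.58 for Psme3 and 0.88 for Psme4. In MUT, Psmb5 was at -0.35 with sex and -0.026 to 0.39 without 1 embryo, Psmb6 at 0.046 with limma-trend, and Psmb7 at -0.87 with sex, -0.088 without sums of 1 cell and -0.18 to 0.34 without 1 embryo. In PrE against ICM of WT, Psmb5 was at 0.016 with RLE and with DESeq2, 0.55 with limma-trend, 0.12 with sex and -0.18 to 0.27 without 1 embryo, and limma-trend gave 0.089 for Psmb7, 0.19 for Psme2 and 1.06 for Psme3. In MUT, Psmb5 was at -0.13 with sex, and Psmb7 at 0.24 with limma-trend and -0.47 to 0.074 without 1 embryo. In MUT against WT EPI, Psmb5 was at 0.032 without sums of 1 cell, 0.018 with sex, 0.11 with the letter and -0.30 to 0.032 without 1 embryo. In MUT against WT PrE, sex and the letter gave -0.042 and -0.015 for Psmc5, -0.19 and -0.19 for Psmb5, and 0.19 and 0.34 for Psmb6. There Psmb6 was at 0.0049 without the filter, Psmb7 at 0.24 without sums of 1 cell and 0.052 with the number as a block, and Psmb10 at -2.42 with that block. Without 1 embryo, Psmb5, Psmb6 and Psmb7 ranged there over -0.021 to 0.19, -0.12 to 0.17 and -0.36 to 0.24, and in MUT against WT ICM, Psmb3, Psmb6 and Psmb10 over -0.44 to 0.13, -0.48 to 0.052 and -0.84 to 0.55. Psmb9 was at 0.59 with limma-trend for genotype by lineage. With cells weighted equally, EPI WT means were 258 CPM for Psmb7 and 51.4 CPM for Psme3.

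With the embryo as a block, which pairs EPI and PrE, no member was called in either genotype (medians 0.01 in MUT and 0.04 in WT), and of all genes 74 were called in MUT, against 177 without it, and 0 in WT, against 4. With the embryo number as a block, where numbers do not pair embryos, the median of MUT against WT was -0.094 in EPI and 0.07 in PrE.

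Sums of 1 cell, shallow ICM libraries and 3 to 5 embryos a group limit these comparisons.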
